A study of Rattus norvegicus with 9 samples.

Results

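The MHC class II genes of the rat were followed in pancreatic stellate cells grown on 3 culture surfaces. The set holds 8 genes out of 14506 tested, each read by the single array entry that the probe table pairs with its symbol: RT1-Da, RT1-Db1, RT1-Ba, RT1-Bb, RT1-DMa, RT1-DMb, Cd74 and Ciita. Stellate cells, the fibroblast-like cells of the pancreas, came from male Sprague Dawley rats by density gradient isolation and were kept on dishes of 10 cm for 72 hours in serum-containing medium. Affymetrix rat whole-transcript arrays were run on 2 samples from Matrigel, a basement membrane extract, 3 from collagen I, the fibrillar collagen of scar tissue, and 4 from uncoated plastic. The titles carry a letter of unstated meaning, A and S on the Matrigel arrays, A, P and Z on the collagen arrays and A, P, S and Z on the plastic arrays. The ages of the rats and whether arrays came from separate animals are not given in the labels, so each p-value reflects the spread between arrays alone, which may be technical.

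MHC class II molecules are pairs of an alpha and a beta chain that show peptides from the endosomes to helper T cells. In the rat the classical pairs are RT1-D, with RT1-Da as alpha and RT1-Db1 as a beta chain, and RT1-B, with RT1-Ba as alpha and RT1-Bb as beta. Cd74 encodes the invariant chain, which plugs the groove of new class II molecules and guides them to endosomes, and RT1-DMa and RT1-DMb encode the DM pair that swaps the invariant chain fragment for peptide. Ciita is the transactivator that switches the family on together with RFX and NF-Y, factors that sit on the X and Y boxes of class II promoters. Dendritic cells, B cells and macrophages carry these molecules constitutively or after activation, and fibroblast-like cells can gain them under interferon gamma.

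In the RefSeq table, 6 of the 8 genes lie in 1 stretch of chromosome 20, in the order RT1-Da, RT1-Db1, RT1-Ba, RT1-Bb, RT1-DMb and RT1-DMa, with the class I processing genes Tap1, Tap2, Psmb8 and Psmb9 inside it. Cd74 lies on chromosome 18 and Ciita on chromosome 10. Promoters of 6 of the 8 genes matched by gene ID in the RefSeq promoter table (build GRCr8), each with 250 bases before and 50 bases after the annotated start. The promoter of RT1-Da is shown whole because that gene stood out on collagen. For 4 relatives 70 bases around the core of the Y box are shown so that the stretches can be compared. Capitals mark GCAAC, the core of the X box, and ATTGG, the core of the Y box, on the gene's own strand. The regions are chr20:4515165-4515464 on the plus strand for RT1-Da, chr20:4560228-4560297 on the minus strand for RT1-Db1, chr20:4576959-4577028 on the plus strand for RT1-Ba, chr20:4604165-4604234 on the minus strand for RT1-Bb and chr20:4712385-4712454 on the minus strand for RT1-DMa.
RT1-Da: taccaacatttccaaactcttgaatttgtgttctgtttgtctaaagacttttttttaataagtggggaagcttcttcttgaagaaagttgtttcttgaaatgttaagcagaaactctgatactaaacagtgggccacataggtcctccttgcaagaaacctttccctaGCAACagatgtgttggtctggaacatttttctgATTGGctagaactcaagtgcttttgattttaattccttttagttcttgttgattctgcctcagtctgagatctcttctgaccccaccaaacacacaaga
RT1-Db1: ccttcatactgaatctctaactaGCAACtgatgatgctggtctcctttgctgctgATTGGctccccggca
RT1-Ba: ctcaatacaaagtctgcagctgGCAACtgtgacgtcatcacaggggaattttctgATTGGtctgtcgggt
RT1-Bb: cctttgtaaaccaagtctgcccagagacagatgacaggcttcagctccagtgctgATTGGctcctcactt
RT1-DMa: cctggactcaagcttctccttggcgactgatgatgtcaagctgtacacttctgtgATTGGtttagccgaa

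The X core preceded the Y core on the gene's strand by 33 bases in RT1-Da and RT1-Ba and by 32 bases in RT1-Db1, counted from start to start. The X core began 82 bases before the annotated start in RT1-Da, 112 in RT1-Db1 and 76 in RT1-Ba. This arrangement, with both cores on 1 strand and a spacing of 25 to 45 bases, was present in 3 of the 6 promoters and in 0.947% of 33469 promoters of the same length. Its letters and spacing were chosen with the class II promoters in view. The longer Y box CTGATTGG, which contains the Y core, was found in RT1-Da, RT1-Db1, RT1-Ba and RT1-Bb, and on either strand in 3.50% of all promoters. The cores alone are common, GCAAC in 35.1% and ATTGG in 37.5% of all promoters on either strand. RT1-DMa held 2 Y cores and no X core in these letters, and Cd74 held an X core 70 bases before its start and a Y core on the opposite strand 189 bases before it. A match is a run of letters and not a measured binding site.

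**Figure D1:**
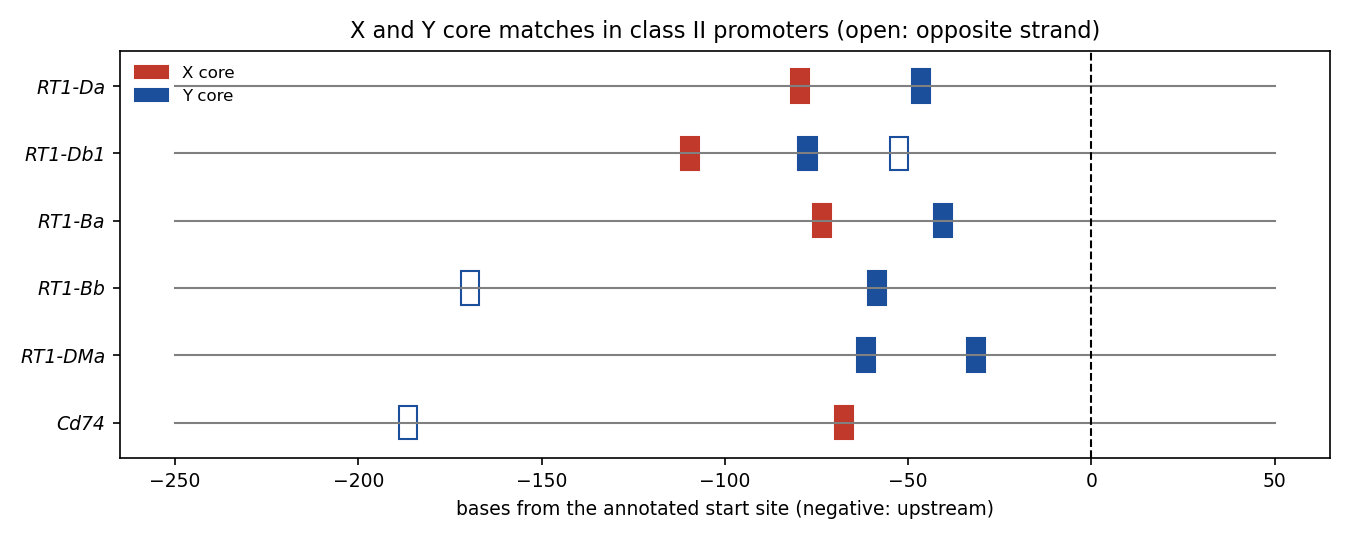
Positions of X core (GCAAC, red) and Y core (ATTGG, blue) matches in 6 promoters, in bases from the annotated start site on the horizontal axis, 1 gene per row; filled boxes lie on the gene's strand and open boxes on the opposite strand. RT1-Da, RT1-Db1 and RT1-Ba each show an X core followed by a Y core 32 to 33 bases downstream.

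Values are log2 expression values as the authors deposited them. A level under 4.25, the 40th percentile of the mean levels of all tested genes, is called dim here, since the arrays give no detection call; where 1 of 2 surfaces is dim the difference is printed as a lower bound ("at least"), computed with each array of the dim surface that lies under that level raised to it. Cell identity was read from marker lists. Of 14 stellate cell markers, 11 were above the dim level on all 9 arrays, the collagen genes Col1a1, Col1a2 and Col3a1 among them. Gfap and Rgs5 were dim on all arrays, and Lrat was above the dim level on 3. Of 26 macrophage markers 20 were above that level on all 9 arrays. All 6 B cell markers were dim on all arrays, as were 5 of 10 dendritic cell markers. So were 12 of 14 T and NK cell markers, the CD3 genes Cd3e, Cd3d and Cd3g included. The other T and NK cell markers, Cd4 and Gzmb, were above the dim level on 9 and 7 arrays. The macrophage markers were present on all 3 surfaces, so the arrays read mixed RNA. In such bulk samples a change in the number of cells of a type and a change in RNA per cell cannot be told apart. The array medians lay between 4.08 and 4.18.

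Cd74, RT1-Da and RT1-DMa, the members with a mean above the dim level, were all higher on collagen than on plastic in each of the 3 shared letters. On Matrigel they differed from each other. RT1-DMa was higher on Matrigel than on plastic, the sole member past the threshold in the fit without title letters, where 4.52% of all genes were called higher. Cd74 and RT1-Da had their highest levels on collagen, above plastic in each of the 3 shared letters, and passed the threshold against plastic when the letter was a fixed block; with the letter as a random block RT1-Da passed and Cd74 did not (adjusted p = 0.0503). RT1-Db1, RT1-Ba, RT1-Bb and the transactivator gene Ciita were dim on all 9 arrays.

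**Figure D2:**
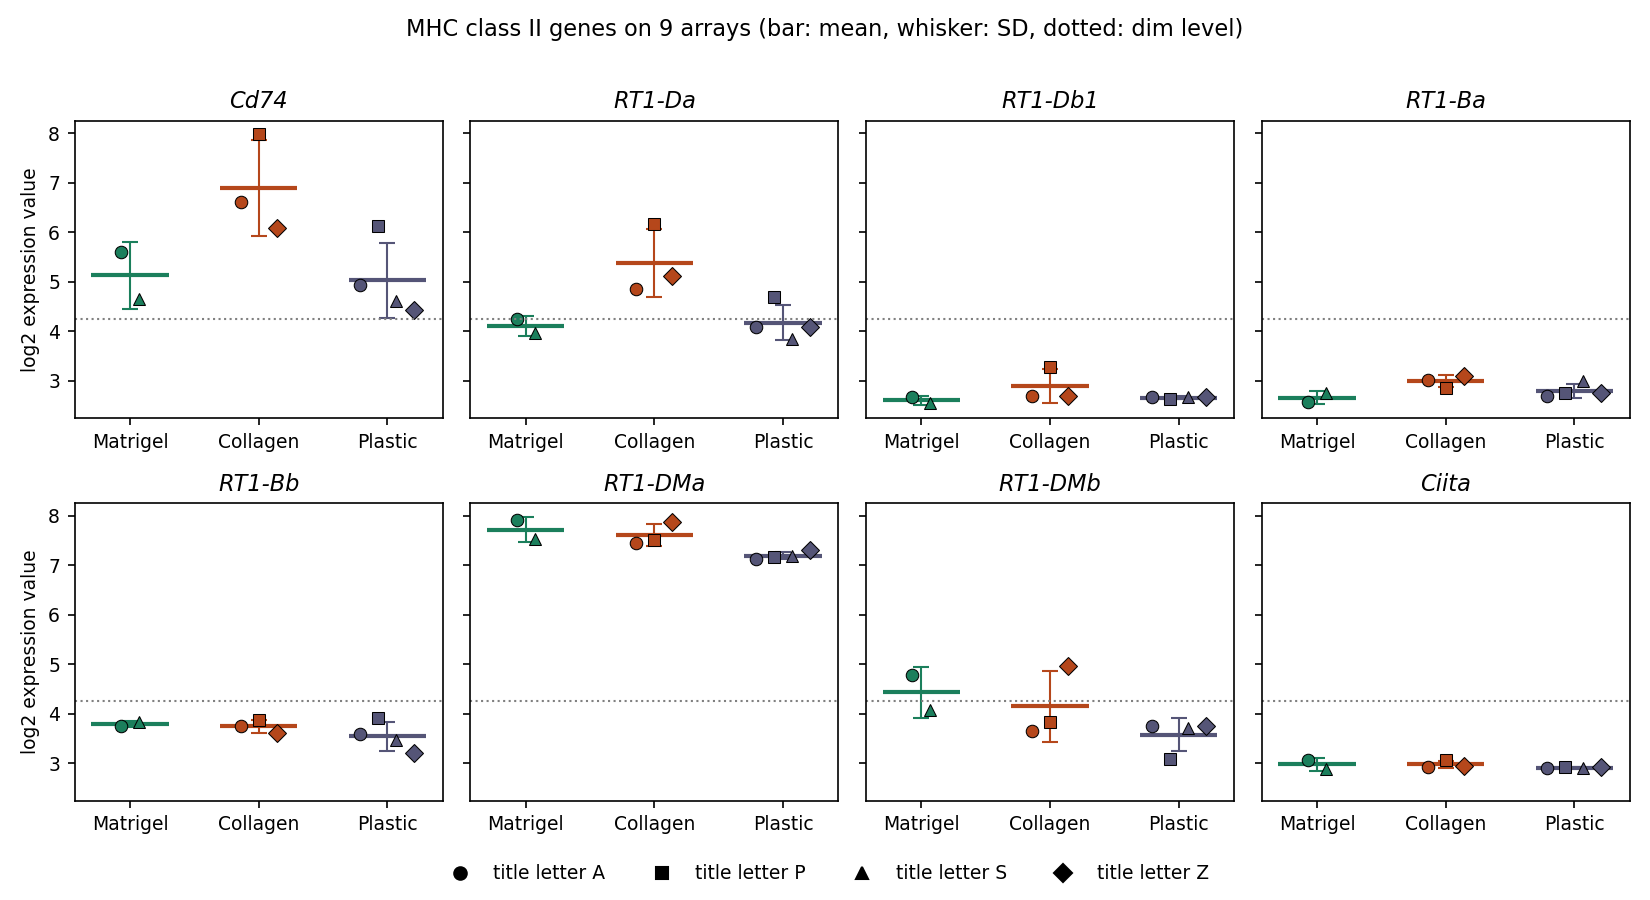
Deposited log2 expression values (vertical axis) of the 8 class II genes on Matrigel, collagen and plastic; points are single arrays with the title letter as shape, bars are means, whiskers SD (n = 2, 3 and 4) and the dotted line is the dim level of 4.25. Cd74 and RT1-Da are highest on the collagen array of letter P, and the 4 genes RT1-Db1, RT1-Ba, RT1-Bb and Ciita lie below the line on all arrays.

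Cd74 (Entrez gene 25599), the invariant chain gene, had levels of 6.61, 7.98 and 6.09 on the collagen arrays of letters A, P and Z, against 4.94, 6.12, 4.61 and 4.43 on the plastic arrays of letters A, P, S and Z. The groups overlapped through 1 array each, since plastic of letter P lay just above collagen of letter Z. On Matrigel it had 5.61 for letter A and 4.65 for letter S, within the range of plastic. Cd74 averaged 6.90 ± 0.98 on collagen (SD, n = 3) and 5.03 ± 0.76 on plastic (SD, n = 4), a difference of 1.87 ± 0.53 (log2, SE; 95% interval 0.66 to 3.08), or 3.65-fold (limma adjusted p = 0.0858). Letter P was the highest on both surfaces. Within letters, collagen exceeded plastic by 1.67 for A, 1.86 for P and 1.66 for Z, which is 3.18-, 3.63- and 3.16-fold. With the letter as a fixed block the difference was 1.67 ± 0.13 (log2, SE; limma adjusted p = 0.00250).

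RT1-Da (Entrez gene 294269), the alpha chain gene of the RT1-D molecule, had 4.85, 6.17 and 5.12 on the collagen arrays of letters A, P and Z, against 4.08, 4.68, 3.84 and 4.08 on the plastic arrays of letters A, P, S and Z. All collagen arrays lay above all plastic arrays, with letter P again the highest on both. On Matrigel it had 4.26 for letter A and 3.96 for letter S, inside the plastic range. RT1-Da averaged 5.38 ± 0.69 on collagen (SD, n = 3) and a dim 4.17 ± 0.36 on plastic (SD, n = 4), at least 1.02 higher on the log2 scale, which is at least 2.03-fold (limma adjusted p = 0.0612). Within letters collagen exceeded plastic by at least 0.61 for A, by 1.48 for P and by at least 0.87 for Z, the plastic arrays of A and Z being dim, and with the letter as a fixed block the fitted difference was 1.08 ± 0.14 (log2, SE; limma adjusted p = 0.00937).

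**Figure D3:**
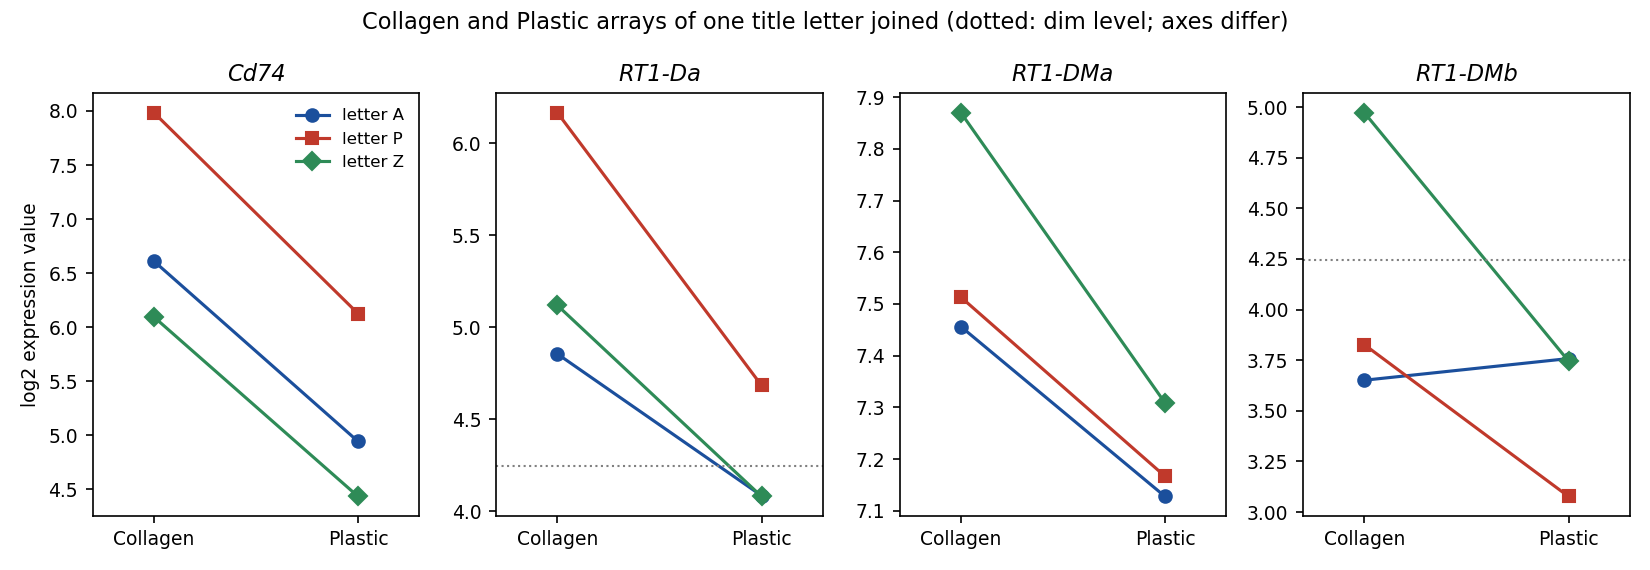
Log2 expression values (vertical axes, which differ) of Cd74, RT1-Da, RT1-DMa and RT1-DMb on the collagen array (left) and the plastic array (right) of letters A, P and Z, joined by letter. The 3 lines of Cd74 run nearly parallel, with differences of 1.66 to 1.86, whereas RT1-DMb is below the dim level of 4.25 on 5 of its 6 arrays.

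Letters A, P and Z were read as pairs between collagen and plastic because deviations from the group means, across all genes, correlated within each letter (r = 0.196, 0.234 and 0.269). For collagen of letter A, however, the correlation with plastic of another letter, S, was higher (r = 0.243). With the letter as a fixed block 2 of the 8 members passed, Cd74 and RT1-Da, both higher on collagen, beside 3.53% of all genes called higher in that fit. It uses all 9 arrays, the Matrigel letters included, and leaves 3 residual degrees of freedom. A fit of the 6 collagen and plastic arrays that share a letter, chosen after seeing the data, called the same 2 members, beside 2.67% of all genes called higher: Cd74 at 1.73 ± 0.07 (log2, SE; limma adjusted p = 0.00644) and RT1-Da at a fitted 1.10 ± 0.15 (adjusted p = 0.0345), on 2 residual degrees of freedom. With the letter as a random block 1 of the 8 passed, RT1-Da (adjusted p = 0.0367). Without the block 0 of the 8 passed by limma and 3 had an unadjusted p under 0.05, RT1-Da, Cd74 and RT1-DMa, beside 19% of all genes; 2.95% of all genes were called higher and 3.17% lower. The groups did not overlap, collagen above plastic, for 3 of the 8 members, RT1-Da, RT1-Db1 and RT1-DMa, beside 8.04% of all genes. RT1-Db1 was dim on all 9 arrays, with 2.68 on collagen and 2.67 on plastic of letter A. The members' median difference was 0.32, and that of all genes 0.00. Both letter P arrays were left out in a fit chosen after seeing the data: RT1-Da then passed at a fitted 0.99 (adjusted p = 0.0262) and Cd74 did not at 1.69 (adjusted p = 0.0556). Without the block, Cd74 passed when plastic replicate 2, of letter P, was left out (2.23, adjusted p = 0.0439), and RT1-Da when collagen replicate 1, of letter A, was left out (fitted 1.47, adjusted p = 0.0462).

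The DM pair lay wholly above plastic on Matrigel, where Cd74 and RT1-Da lay within the plastic range. RT1-DMa (Entrez gene 294274) had 7.91 for letter A and 7.54 for letter S on Matrigel, and 7.46, 7.51 and 7.87 on the collagen arrays of letters A, P and Z. On the plastic arrays of letters A, P, S and Z it had 7.13, 7.17, 7.19 and 7.31. Both coated surfaces lay wholly above plastic and overlapped each other. RT1-DMa rose on Matrigel to 7.73 ± 0.26 (SD, n = 2), against 7.20 ± 0.08 on plastic (SD, n = 4), a difference of 0.53 ± 0.14 (log2, SE), or 1.44-fold (limma adjusted p = 0.0476). On collagen it averaged 7.61 ± 0.22 (SD, n = 3) and differed from plastic by 0.42 ± 0.12 (log2, SE; limma adjusted p = 0.0989), with collagen above in all 3 letters. The Matrigel call did not hold without Matrigel replicate 1 (difference 0.34, adjusted p = 0.286), nor without collagen replicate 1 or 2 or any 1 plastic array (adjusted p from 0.0559 to 0.112), nor with arrays re-centred on their medians (adjusted p = 0.0860).

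RT1-DMb (Entrez gene 294273), the beta partner, had 4.79 and 4.07 on Matrigel, 3.65, 3.83 and 4.97 on collagen, and 3.76, 3.08, 3.72 and 3.75 on plastic, each in the order of letters given above. Only Matrigel of letter A and collagen of letter Z exceeded the dim level. It averaged 4.43 ± 0.51 on Matrigel (SD, n = 2), against a dim 3.57 ± 0.33 on plastic (SD, n = 4), at least 0.18 higher, and did not pass (limma adjusted p = 0.213). Collagen and plastic were both dim in letters A and P, and collagen was at least 0.73 higher in letter Z; that comparison did not pass either (adjusted p = 0.418).

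Among the classical chains, RT1-Db1 (Entrez gene 294270), a beta chain gene, was dim with 2.68, 3.28 and 2.69 on collagen of letters A, P and Z, against 2.62 to 2.67 on plastic. Its one higher value was again collagen of letter P. RT1-Ba (Entrez gene 309621) lay between 2.56 and 2.74 on Matrigel, between 2.86 and 3.10 on collagen and between 2.68 and 2.98 on plastic. RT1-Bb (Entrez gene 309622) lay between 3.75 and 3.83 on Matrigel, between 3.61 and 3.87 on collagen and between 3.19 and 3.91 on plastic. Ciita (Entrez gene 85483) lay between 2.88 and 3.07 on all 9 arrays. These 4 genes passed in none of the 3 comparisons (limma adjusted p from 0.179 to 0.996), and no fold is given where both surfaces are dim.

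Between Matrigel and plastic, 1 of the 8 members passed, RT1-DMa, and 5.85% of all genes were called lower. It was also the sole member with an unadjusted p under 0.05, beside 24.1% of all genes. The members' median difference was 0.08, against -0.01 over all genes. Matrigel lay wholly above plastic for RT1-DMa and RT1-DMb, 2 of the 8, beside 13.6% of all genes. RT1-DMb was dim on all plastic arrays and on Matrigel of letter S. Cd74 differed by 0.10 (95% interval -1.27 to 1.47; adjusted p = 0.952), an interval that holds a difference of 2-fold either way. Within letters Cd74 was 0.67 higher on Matrigel for A and 0.04 higher for S.

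Between Matrigel and collagen 0 of the 8 members passed by limma, and 3 had an unadjusted p under 0.05, Cd74, RT1-Da and RT1-Ba, beside 16.9% of all genes; 1.21% of all genes were called higher on Matrigel and 1.45% lower. Cd74 averaged 5.13 ± 0.67 on Matrigel (SD, n = 2) and 6.90 ± 0.98 on collagen (SD, n = 3), a difference of -1.77 ± 0.63 (log2, SE; limma adjusted p = 0.201), and RT1-Da, dim on Matrigel, was at least 2.19-fold lower (adjusted p = 0.126). Within letter A, the only one these surfaces share, the differences were smaller: Cd74 had 5.61 on Matrigel and 6.61 on collagen, and RT1-Da had 4.26 on Matrigel and 4.85 on collagen, a difference of -0.60, or 1.52-fold. Matrigel lay wholly below collagen for 4 of the 8 members, Cd74, RT1-Da, RT1-Db1 and RT1-Ba, beside 16.4% of all genes. Of these, RT1-Db1 and RT1-Ba were dim on all arrays, and RT1-Db1 had 2.67 on Matrigel and 2.68 on collagen of letter A. The members' median difference was -0.14, against -0.02 over all genes. The DM genes did not follow: RT1-DMa differed by 0.11 (95% interval -0.22 to 0.45; adjusted p = 0.767), and RT1-DMb, dim on collagen, did not pass (adjusted p = 0.788).

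**Figure D4:**
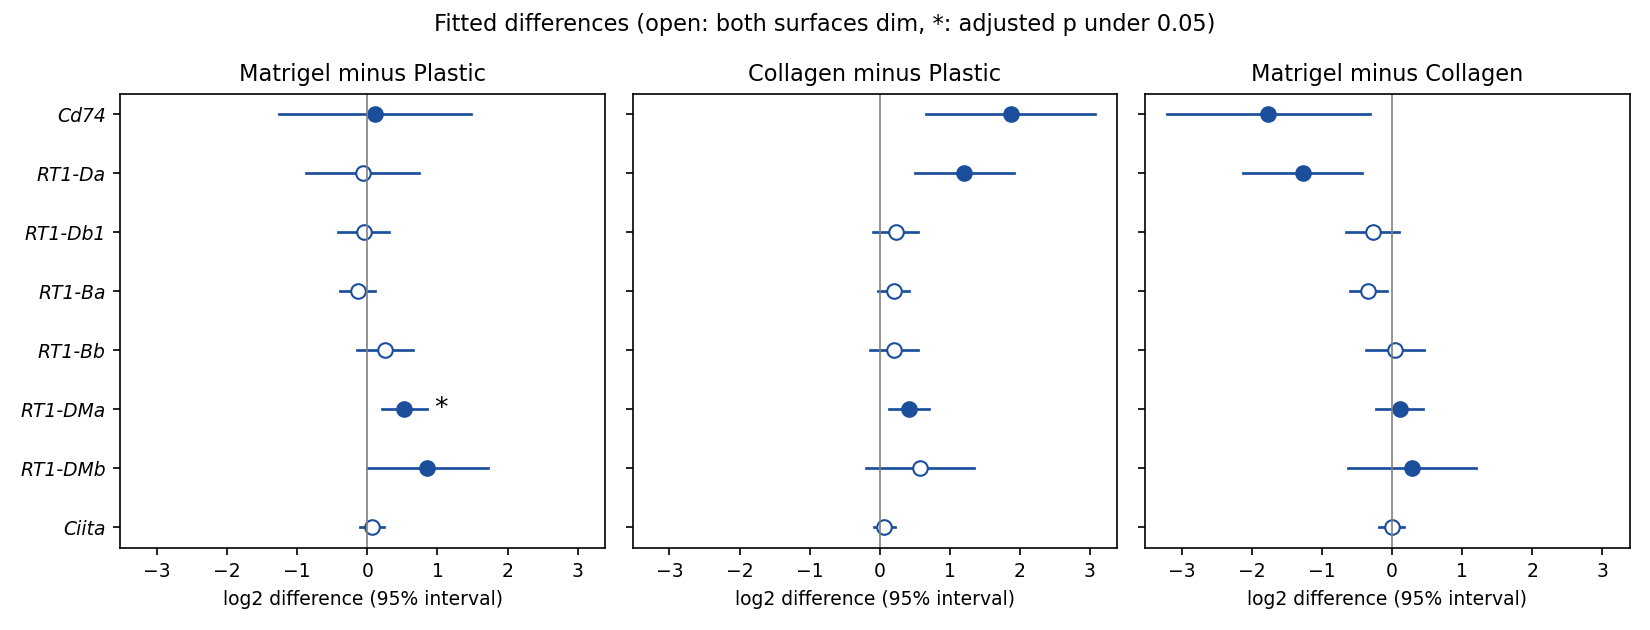
Fitted log2 differences (horizontal axes) with 95% intervals for the 8 genes in the 3 comparisons, without title letters in the fit; open circles mark genes dim on both surfaces and the asterisk marks an adjusted p under 0.05. The asterisk stands at RT1-DMa on Matrigel against plastic (0.53), and the intervals of Cd74 and RT1-Da lie above 0 for collagen against plastic without passing after adjustment.

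Cd74 and RT1-Da therefore did not vary as 1 unit with the DM genes. Over the 9 arrays, which share surfaces and letters, Cd74 and RT1-Da correlated at r = 0.96, and at 0.89 once the mean of each surface was removed. RT1-DMa and RT1-DMb correlated at r = 0.89, and at 0.86 within surfaces. Across these pairs the values were low, from -0.01 for Cd74 with RT1-DMb to 0.30 for RT1-Da with RT1-DMa. Over all 28 pairs the median was 0.29. That median takes in RT1-Db1, RT1-Ba, RT1-Bb and Ciita, dim on all 9 arrays, and RT1-DMb, above the dim level on 2. Correlations with such genes, those of RT1-DMb included, can be low for want of signal, so the median says little about shared variation. These correlations are descriptions of 9 arrays, and the letter P arrays hold the highest Cd74 and RT1-Da values on collagen and on plastic.

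Among the markers of antigen-presenting cells, the macrophage list averaged highest on Matrigel, whereas the means of the dendritic cell list overlapped between surfaces. The 26 macrophage markers had a mean level of 7.05 and 7.44 on Matrigel, of 5.88, 5.91 and 6.76 on collagen of letters A, P and Z, and of 6.69, 5.90, 7.04 and 6.09 on plastic of letters A, P, S and Z. Of them 3 rose on Matrigel against plastic, beside 4.52% of all genes. These were Itgam, Itgb2 and Laptm5, by 1.98 ± 0.48, 1.53 ± 0.36 and 1.62 ± 0.34 (log2, SE; limma adjusted p from 0.0200 to 0.0342). The list median was 0.95, and 13 of the 26 had an unadjusted p under 0.05, beside 24.1% of all genes. Matrigel lay wholly above plastic for 15 of the 26, beside 13.6% of all genes, and wholly below for 0. On collagen against plastic 0 of the 26 passed by limma, 2 had an unadjusted p under 0.05, beside 19% of all genes, and the median was -0.15. On Matrigel against collagen 0 passed by limma, 13 had an unadjusted p under 0.05, beside 16.9% of all genes, and the median was 1.15. Cd74 and RT1-Da were highest on the collagen array of letter P, where the macrophage mean was 5.91. The array with the highest macrophage mean, Matrigel of letter S, had 4.65 and 3.96. Plastic of letter P, with a macrophage mean of 5.90, had 6.12 and 4.68, and collagen of letter Z, with 6.76, had 6.09 and 5.12. The part of macrophages in the levels of these 2 genes was not tested. RT1-DMa averaged 7.61 on collagen, where the macrophage mean averaged 6.18, and 7.20 on plastic, where that mean averaged 6.43. RT1-DMa was also high on Matrigel, where the macrophage markers were high, and their part in its rise was not tested. Stellate cell markers moved there too, since 4 of 14 fell on Matrigel against plastic, beside 5.85% of all genes. These were Des by 1.93, Thy1 by 2.04, Lum by 2.43 and Col3a1 by 0.93 (limma adjusted p from 0.000208 to 0.0238). Their part in the rise of RT1-DMa was not tested either. On collagen against plastic 1 of the 14 fell, Des by 0.77 (limma adjusted p = 0.00580), beside 3.17% of all genes. The 10 dendritic cell markers had a mean between 4.26 and 4.39 on Matrigel and between 4.26 and 4.30 on collagen. On plastic that mean lay between 4.24 and 4.48. By limma 0 of the 10 passed in any comparison. At an unadjusted p under 0.05 were 2 for Matrigel against plastic, 3 for collagen against plastic and 0 for Matrigel against collagen. The shares over all genes were 24.1%, 19% and 16.9% in that order.

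**Figure D5:**
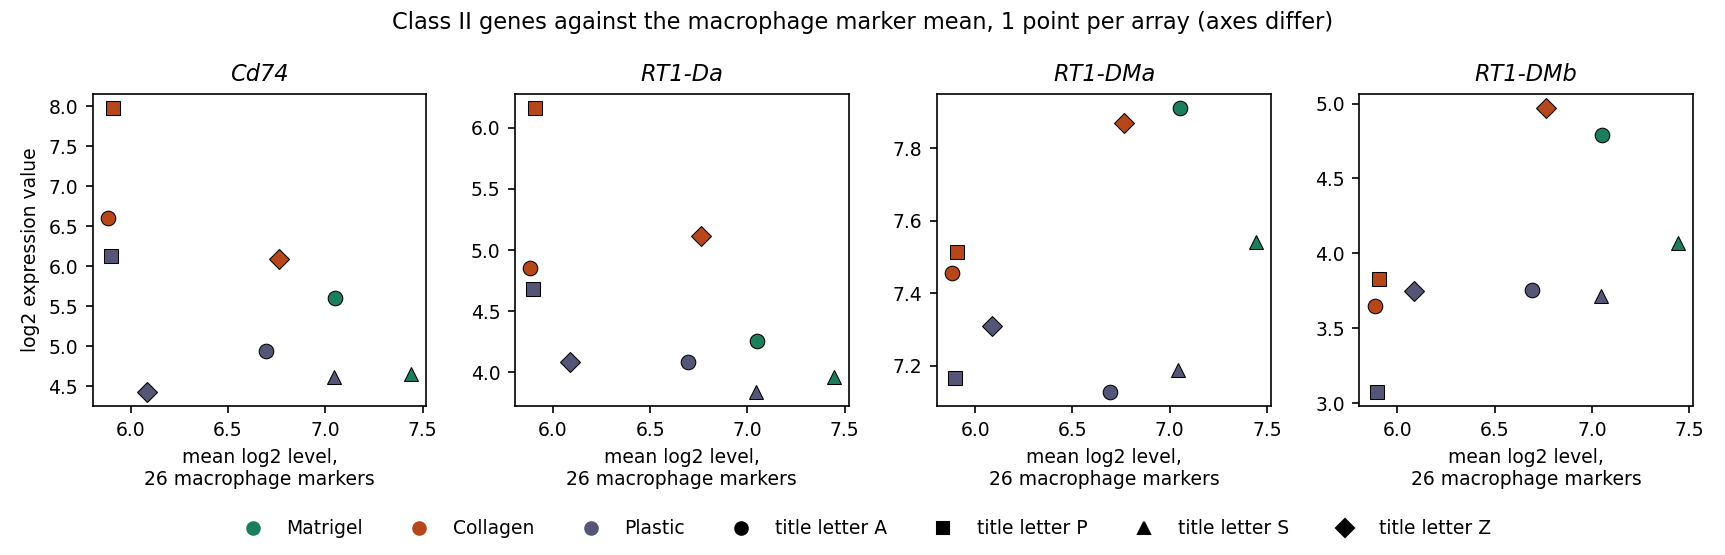
Log2 expression values of 4 class II genes (vertical axes, which differ) against the mean log2 level of 26 macrophage markers (horizontal axes), 1 point per array, coloured by surface with the title letter as shape. Cd74 and RT1-Da peak at collagen of letter P, at a macrophage mean of 5.91, and the highest RT1-DMa value is at Matrigel of letter A, at 7.05.

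The promoter factors were tested as a list of 10, all above the dim level on all arrays. The RFX subunit genes Rfx5, Rfxap and Rfxank, which bind the X box, passed in no comparison. Nfyb, a subunit of the NF-Y factor of the Y box, fell on Matrigel, by 0.61 ± 0.07 against plastic (limma adjusted p = 0.00154) and by 0.49 ± 0.07 against collagen (adjusted p = 0.0158). Crebbp, which encodes the acetyltransferase CBP that CIITA recruits, rose by 0.49 ± 0.09 on Matrigel against plastic (adjusted p = 0.00923). Kat2b, an acetyltransferase gene, fell by 0.98 ± 0.19 on Matrigel (adjusted p = 0.0145) and by 0.93 ± 0.17 on collagen (adjusted p = 0.0136), both against plastic. In all, 1 of the 10 rose on Matrigel against plastic and 2 fell, beside 4.52% of all genes called higher and 5.85% lower. On collagen against plastic 1 fell, beside 3.17% of all genes, and on Matrigel against collagen 1 fell, beside 1.45%.

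In interferon gamma signalling, the pathway that induces Ciita, 19 of 20 listed genes were tested. Ifng, the cytokine gene itself, was dim on all arrays, between 2.13 and 2.54. Irf2, which encodes an interferon regulatory factor, rose on Matrigel by 0.62 ± 0.11 against plastic (limma adjusted p = 0.00923) and by 0.58 ± 0.11 against collagen (adjusted p = 0.0400). Stat2, a mediator of type I interferon responses, fell by 1.12 ± 0.28 on Matrigel against plastic (adjusted p = 0.0409), and the kinase gene Jak1 fell by 0.51 ± 0.10 on collagen against plastic (adjusted p = 0.0212). The other members did not pass. On Matrigel against plastic 1 of the 19 rose and 1 fell, beside 4.52% of all genes called higher and 5.85% lower. On collagen against plastic 1 fell, beside 3.17% of all genes, and on Matrigel against collagen 1 rose, beside 1.21%. The list medians were -0.09 on Matrigel and -0.08 on collagen, both against plastic.

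Later steps of the pathway were largely without calls. Of 12 genes of endosomal processing, such as the cathepsin genes and Ifi30, 0 passed in any comparison by limma. At an unadjusted p under 0.05 were 3 for Matrigel against plastic, 1 for collagen against plastic and 5 for Matrigel against collagen. The shares over all genes were 24.1%, 19% and 16.9% in that order. Ctss, the cathepsin that trims the invariant chain, had 7.15 and 7.29 on Matrigel, 5.62, 5.81 and 6.74 on collagen, and 6.45, 5.46, 7.08 and 5.91 on plastic, so Matrigel lay above the other arrays. Of 7 costimulatory genes 0 passed by limma, with 0, 2 and 1 at an unadjusted p under 0.05, in the same order and beside the same shares. Of 19 class I genes tested, 1 fell on Matrigel, RT1-N3, a class I gene of the same complex. It fell by 0.53 ± 0.08 against plastic (limma adjusted p = 0.00474), beside 5.85% of all genes called lower. Against collagen it fell by 0.52 ± 0.08 (limma adjusted p = 0.0203), beside 1.45% called lower. The other 18 did not pass. Of 6 further class II genes tested, among them RT1-DOa and RT1-DOb of the DM inhibitor DO, 0 passed in any comparison and 0 had an unadjusted p under 0.05.

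By likeness of pattern, 8700 other genes above the dim level were compared with the mean of RT1-Da, RT1-DMa and Cd74, the members whose mean over the 9 arrays exceeded that level. RT1-Da did so through collagen, where it is high, so the pattern leans on the collagen arrays by its construction. The 8 most alike were Myo10 (r = 0.97), Ror2 (0.94), Ccl22 (0.94), Cacna2d1 (0.93), Kifap3 (0.93), Chic2 (0.91), Samd4b (0.91) and Trappc2 (0.91). Ccl22, which encodes a chemokine, had 5.33, 7.24 and 4.84 on collagen of letters A, P and Z. On plastic of letters A, P, S and Z it had 3.19, 4.14, 3.54 and 3.76, and the highest value of both surfaces was again at letter P. It was dim on all plastic arrays and on Matrigel, with 4.01 and 4.04, so it too passed the filter only through collagen. Myo10, an unconventional myosin gene, had 8.83, 9.29 and 8.94 on collagen and 8.38, 8.67, 8.21 and 8.49 on plastic in the same order. Likeness over 9 arrays is a description and carries no test.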

How the data were processed

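Per the submitters' processing notes the authors used RMA, and the deposited values are on the log2 scale, as their range shows. Which program ran it, and on which build, is not given in the sources used here. Nothing was normalized again. Of 29215 array entries 15310 had 1 gene symbol in the probe table, 323 several and 13582 none; the brightest entry per gene left 14506 genes. All 8 members had 1 entry and all 8 gene IDs matched RefSeq. The members and gene lists were chosen with earlier results of these data known.

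The 9 arrays entered 1 linear model with a mean for each surface (limma 3.58.1, R 4.3.3), which leaves 6 residual degrees of freedom. Variances were moderated by empirical Bayes, and p-values were adjusted by Benjamini-Hochberg over all genes, separately for each comparison; a call is a two-sided adjusted p under 0.05. The code was tested on simulated data. Named were all members, the called genes of each list (up to 4 with the smallest p) and the 8 most alike in pattern; Ifng, Ctss and the gene examples of uncalled lists were picked as list members for their role. Alternatives were scaling, a filter on dim genes, all entries, averaged entries, 2-surface fits, moderation, array weights, the letter as a fixed or random replicate block, and each array left out. Letters were read as pairs between collagen and plastic only, although the fixed and random block fits hold all 9 arrays and so block the Matrigel letters too: for Matrigel and plastic the same-letter correlations were -0.131 for A and 0.406 for S. The number of arrays limits the precision.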

Additional observations from a re-analysis of the deposited data

Results flagged for a closer look

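In 2 of the 8 members 1 plastic array stood apart from the other plastic arrays by its gap over the group's range. RT1-DMb was lowest on plastic of letter P, at 3.08, against 3.72 to 3.76 on the other plastic arrays. RT1-Db1 was also lowest on plastic of letter P, at 2.62, against 2.66 to 2.67 on the others, all dim and partly identical to the last digit given. Chance gives such a gap in about 1 of 20 groups, and 8 members and 12 list means were examined.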

How the results depend on the processing

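For Matrigel against plastic, 0 members passed with arrays re-centred on their medians, with every entry tested, with array weights, with only the 2 compared surfaces or without both letter P arrays, and 0 to 1 with each array left out; there the genes called over the whole array ranged from 759 to 1461 (818 without letter P). For collagen against plastic, 1 member passed with only genes above the dim level (RT1-Da, which passes that filter through its collagen level; the median of the 3 members kept, 1.21, is its own difference), 2 with array weights, 2 with the title letter as a fixed replicate block, over all 9 arrays or over the 6 that share a letter, 1 with it as a random replicate block, where Cd74 was lost, 1 without both letter P arrays, and 0 to 1 with each array left out; genes called ranged from 552 to 870 with an array left out and were 334 without letter P. Cd74 ranged there from 1.32 to 2.27 with an array left out and RT1-Da from 0.82 to 1.47. For Matrigel against collagen 0 members passed in any setting; the median was -1.27 above the dim level, again the difference of RT1-Da, and the genes called numbered 257 with array weights, 66 with the fixed block, 0 without letter P, 0 with only the 2 surfaces, and 68 to 352 with an array left out. Apart from fewer genes or arrays in a setting, the cause was not tested.

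Small uncalled differences changed sign. For Matrigel against plastic these were RT1-Da at 0.24 and 0.0016 with the fixed and random block and 0.11 without letter P (-0.21 to 0.11 with an array left out), RT1-Db1 at 0.0031 with the fixed block (-0.12 to 0.014), Ciita at -0.00037 after re-centring (-0.032 to 0.16) and Cd74 (-0.37 to 0.58). For Matrigel against collagen they were Ciita at 0.050 and 0.0076 with the blocks and 0.037 without letter P (-0.10 to 0.091), RT1-Bb (-0.019 to 0.11), RT1-DMa (-0.073 to 0.30) and RT1-DMb (-0.079 to 0.69). Re-centring gave 512 genes higher and 1036 lower on Matrigel against plastic, beside 655 and 849 as reported, and 122 and 259 against collagen, beside 176 and 211.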

Other observations

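The collagen array of letter P, where Cd74 and RT1-Da were highest, held the highest of the 9 values for 4 of 7 costimulatory genes, Cd80, Cd86, Cd40 and Tnfsf4, and the lowest for 1, Cd48. Of 10 dendritic cell markers it held the highest value for 1, Ccr7, and the lowest for 3, Zbtb46, Cd209a and Clec10a. Of 26 macrophage markers it held the highest value for 0 and the lowest for 10. Tnfsf4 and Cd209a were dim on all 9 arrays. This array was singled out after its values were seen. How often it held an extreme value over all tested genes was not counted, so no excess can be read from these counts. The costimulatory gene Cd86 had 5.63 there and 4.28 and 4.01 on the collagen arrays of letters A and Z, against 3.45 to 4.01 on plastic, and did not pass on collagen against plastic (limma adjusted p = 0.220). Ccr7, a chemokine receptor of migrating dendritic cells, had 5.89 there and 4.75 and 4.72 on the other collagen arrays, against 4.46 to 4.96 on plastic, and did not pass (limma adjusted p = 0.444).

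Tgfb1, which encodes a growth factor known to repress class II genes, had 10.33 and 9.60 on Matrigel of letters A and S, 10.19, 10.39 and 11.24 on collagen of letters A, P and Z, and 7.91, 8.39, 7.80 and 8.71 on plastic of letters A, P, S and Z. It was higher on both coated surfaces than on plastic (limma adjusted p = 0.0169 for Matrigel and 0.00313 for collagen). Cd74 differed from plastic by 0.10 on Matrigel and by 1.87 on collagen. With the mean of RT1-Da, RT1-DMa and Cd74, Tgfb1 correlated at r = 0.70 over the 9 arrays, and at 0.13 once the mean of each surface was removed. Tgfb1 was named by choice, and its part in the class II levels was not tested.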
